A study of Mus musculus with 137 samples.

Results

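The oocyte Nlrp genes followed here are Nlrp2, Nlrp4a, Nlrp4b, Nlrp4c, Nlrp4e, Nlrp4f, Nlrp9a, Nlrp9b, Nlrp9c and Nlrp14, 10 of the 36176 genes for which estimated counts could be summed. They were chosen by name, as Nlrp genes whose mRNA the oocyte stores, and all 10 passed the filter on low counts, which left 14534 genes for testing. RNA was read from single 2-cell mouse embryos of the B6129F1 cross in 2 experiments, by SmartSeq2, a full-length protocol that primes on the poly(A) tail. A library is 1 embryo, and the parents are not recorded, so a p-value measures the spread between embryos. The label SR1848 with NR5A2 mRNA is on 67 libraries (27 of experiment 1, 40 of experiment 2), SR1848 on 41 (17 and 24) and DMSO on 29 (19 and 10). SR1848 is an inhibitor of NR5A2, a nuclear receptor that binds DNA, and was used at 10 µM in KSOM medium from 6 hours after fertilization. DMSO, the solvent, was used at 0.1%, and the injected mRNA at 500 ng/µl. Zygotes of every group had been collected at 5 hours after fertilization and were cultured in wet chambers with no oil cover. The labels record no embryos injected with a control mRNA, so injection as such and NR5A2 cannot be told apart.

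NLRP proteins carry a nucleotide-binding NACHT domain and leucine-rich repeats, and several members outside the oocyte start inflammasomes, the complexes that activate caspase-1. In rodents the family also expanded into copies that are transcribed in the growing oocyte. Their mRNAs are stored in the egg and are cleared as the embryo passes from maternal to zygotic control. NLRP5, also called MATER, is a core protein of the subcortical maternal complex beneath the egg cell membrane. Of the genes followed here, Nlrp2 and Nlrp14 are maternal-effect genes in mice: embryos from mutant mothers develop poorly. NLRP2 and NLRP4F have both been found with proteins of the subcortical maternal complex.

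Because the libraries were primed on the poly(A) tail, the 3′ end of each mRNA bears on what was counted, so the most abundant transcript of each gene was searched there. The cytoplasmic polyadenylation element, TTTTAT or TTTTAAT in DNA letters, takes part in the control of tail length in stored mRNAs. It was present in the last 100 bases of 3 of the 10 transcripts, against 17.1% of the 14496 transcripts searched the same way. The polyadenylation signal, AATAAA or ATTAAA, began within the last 40 bases of 8 of the 10 transcripts, against 68.2% of all; the 2 without it were those of Nlrp4a and Nlrp14. The sites of the 3 transcripts follow, from GENCODE M21, in 30 bases each and 5′ to 3′, with the element and any polyadenylation signal in capitals:
Nlrp4c: tgttTTTTATTAAAtAATAAAtttaggcat
Nlrp4f: tgtgTTTTATATTAAAgaatagtagtcatt
Nlrp9c: tcacTTTTATtaaggaatgcttaatatgaa
In Nlrp4c the element overlaps the ATTAAA signal, in Nlrp4f it runs directly into it, and in Nlrp9c the transcript shown is a short entry annotated as a processed transcript.

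Promoter sequence was available for 9 of the 10 genes, in 11 windows of RefSeq (GRCm38.p6) that run from 250 bases before to 50 bases after each annotated start. No window held the NR5A2 motif CAAGGNCA on either strand, a motif found in 6.71% of 32851 mouse windows. The E-box CANNTG, a short motif bound by oocyte factors such as FIGLA among many others, was in 10 of the 11, against 72.3% of all. By gene it was in 8 of the 9, since the 2 windows of Nlrp4b overlap and Nlrp4a also has 2. The motif TAATTG, bound by the oocyte homeobox factor NOBOX, was in the windows of Nlrp9a and Nlrp9b alone, against 8% of all. These are matches of letters, not sites shown to be bound, and 3 windows are shown on GRCm38 with both motifs in capitals: those of the 2 genes with the NOBOX motif, and that of Nlrp4f, the gene that lies on another chromosome. Nlrp4f lies on the minus strand (chr13:65205667-65205966), and Nlrp9a (chr7:26534773-26535072) and Nlrp9b (chr7:20007773-20008072) lie on the plus strand. The starts are those of RefSeq, and by GENCODE M21 the windows of Nlrp4f and Nlrp9b lie wholly inside their genes. Nlrp4f spans chr13:65177111-65205977 and Nlrp9b spans chr7:19991465-20073306 there.
Nlrp4f: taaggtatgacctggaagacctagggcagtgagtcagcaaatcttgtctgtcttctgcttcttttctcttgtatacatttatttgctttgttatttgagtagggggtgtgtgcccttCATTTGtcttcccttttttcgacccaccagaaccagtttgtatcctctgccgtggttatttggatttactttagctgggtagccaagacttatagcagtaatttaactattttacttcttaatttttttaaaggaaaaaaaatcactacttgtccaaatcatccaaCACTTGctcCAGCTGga
Nlrp9a: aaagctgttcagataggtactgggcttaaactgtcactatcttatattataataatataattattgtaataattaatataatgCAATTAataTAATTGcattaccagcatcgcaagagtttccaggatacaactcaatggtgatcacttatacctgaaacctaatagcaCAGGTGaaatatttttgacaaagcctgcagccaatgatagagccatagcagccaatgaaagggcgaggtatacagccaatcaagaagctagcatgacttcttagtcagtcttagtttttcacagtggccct
Nlrp9b: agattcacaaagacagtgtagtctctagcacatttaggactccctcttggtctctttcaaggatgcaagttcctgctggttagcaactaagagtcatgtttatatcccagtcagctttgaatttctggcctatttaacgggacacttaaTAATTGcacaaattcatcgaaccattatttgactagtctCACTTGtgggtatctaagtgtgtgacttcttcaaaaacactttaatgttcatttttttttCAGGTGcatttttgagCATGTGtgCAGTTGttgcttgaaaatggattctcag
By position, 9 of the 10 genes lie on chromosome 7 and Nlrp4f lies on chromosome 13 (chr13:65177111-65205977). Nlrp9c (chr7:26322473-26403700), Nlrp4a (chr7:26435113-26476142) and Nlrp9a (chr7:26535023-26575615) are neighbours on that chromosome, and Nlrp14 (chr7:107166990-107198102) stands far from the others.

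Several of these genes share sequence, which limits how far kallisto could tell them apart. Of the 31-base words in Nlrp4e transcripts, 52.8% also occurred in another gene, most often in Gm16443, and for Nlrp4c the share was 22.1%, most often in Nlrp4e. Nlrp4f shared 15.9%, most often with Nlrp4g, and the other 7 genes shared between 0% in Nlrp14 and 12.3% in Nlrp9a. Values of Nlrp4e and Nlrp4c are therefore estimates in which reads of near copies were divided, and the protocol keeps no strand.

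Library totals had a median of 4635175 counts and ran from 100513 to 9264241. In experiment 2 the libraries numbered 1 to 8 of the group labelled SR1848 with NR5A2 mRNA and of the group labelled DMSO, 16 in all, went against their labels in the injected RNA. GFP is among the deposited entries and had a median of 3481 CPM (counts scaled to the same total in every library) in the other libraries of experiment 2 labelled SR1848 with NR5A2 mRNA. In the 8 numbered 1 to 8 under that label its highest value was 0.455 CPM, while the 8 labelled DMSO had a median of 2512 CPM. Another 7 libraries were low in total or in genes detected. Calls are given for all libraries as labelled and counts of called Nlrp genes also for the 114 left without the 16 and the low libraries, while levels of the 10 genes are over the 114 unless stated. Among these, the 56 labelled SR1848 with NR5A2 mRNA ran from 0 to 10440 CPM in GFP and from 29.7 to 8696 CPM in Nr5a2. The median of Nr5a2 in the 40 SR1848 libraries was 52.6 CPM. The label therefore did not mean detectable injected RNA in every library, and those without it were kept. Of markers of cumulus and granulosa cells, the cells that surround the egg, 13 were followed. Their summed CPM ran from 0 to 177 in SR1848 with NR5A2 mRNA, from 1.39 to 511 in SR1848 and from 0 to 219 in DMSO libraries, with Foxl2, Inha and Fshr at a median of 0 in every group. Amhr2, the receptor of anti-Müllerian hormone on that list, had medians of 6.39, 0.196 and 60.4 CPM in the same order. Col4a2, a basement membrane collagen on the list, had 4.77, 7.02 and 0.847 CPM and was higher in SR1848 against DMSO by 2.04 on the log2 scale (SE 0.43, edgeR adjusted p = 1.71e-05). Of the 6 markers tested, 3 were higher and 1 lower in SR1848 against DMSO as labelled, against 33.5% and 35.5% of all genes. Over the 114 libraries 2 were higher and 2 lower, against 38.3% and 38.5% of genes. The part of these cells in the results was not tested. Oocyte markers were present in each group: Gdf9, an oocyte growth factor, had medians of 280, 333 and 146 CPM, and Bmp15, its partner, had medians of 1089, 2063 and 359 CPM. Not all of them were lowest in DMSO libraries. Zp3 was highest there, with medians of 26.2, 35.8 and 69.6 CPM in the same order, and Padi6 was nearly level, with 262, 296 and 270 CPM.

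The 10 genes together made up a larger share of the RNA in SR1848 embryos than in the other groups. Over the 114 libraries their summed level ran from 1792 to 6697 CPM with a median of 3200 CPM in 56 embryos with SR1848 and NR5A2 mRNA, from 2096 to 12480 CPM with a median of 6226 CPM in 40 SR1848 embryos, and from 678 to 1935 CPM with a median of 1186 CPM in 18 DMSO embryos. The SR1848 and DMSO embryos did not overlap, while the embryos with NR5A2 mRNA overlapped both. All values are shares of a library's counts, so a transcript can gain share because other transcripts are scarcer. With 1 stage sampled and priming on the poly(A) tail, slower loss of a stored mRNA, a change of its tail and new transcription cannot be told apart.

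Per kilobase of transcript, the scale on which genes can be compared, Nlrp14, Nlrp9c and Nlrp4f were the 3 most abundant in each group, and Nlrp9a was the next. In SR1848 embryos the medians were 512 CPM per kilobase for Nlrp4f, 473 for Nlrp9c, 421 for Nlrp14 and 298 for Nlrp9a, and the quartiles of the leading 3 overlapped. DMSO embryos had another order, with 129 CPM per kilobase for Nlrp14, 99.3 for Nlrp9c, 52.5 for Nlrp4f and 27.5 for Nlrp9a. At the low end stood Nlrp4b, with 14.5, 22.3 and 6.91 CPM per kilobase in SR1848 with NR5A2 mRNA, SR1848 and DMSO embryos, and Nlrp4c, with 4.58, 9.88 and 8.16 CPM per kilobase.

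**Figure D1:**
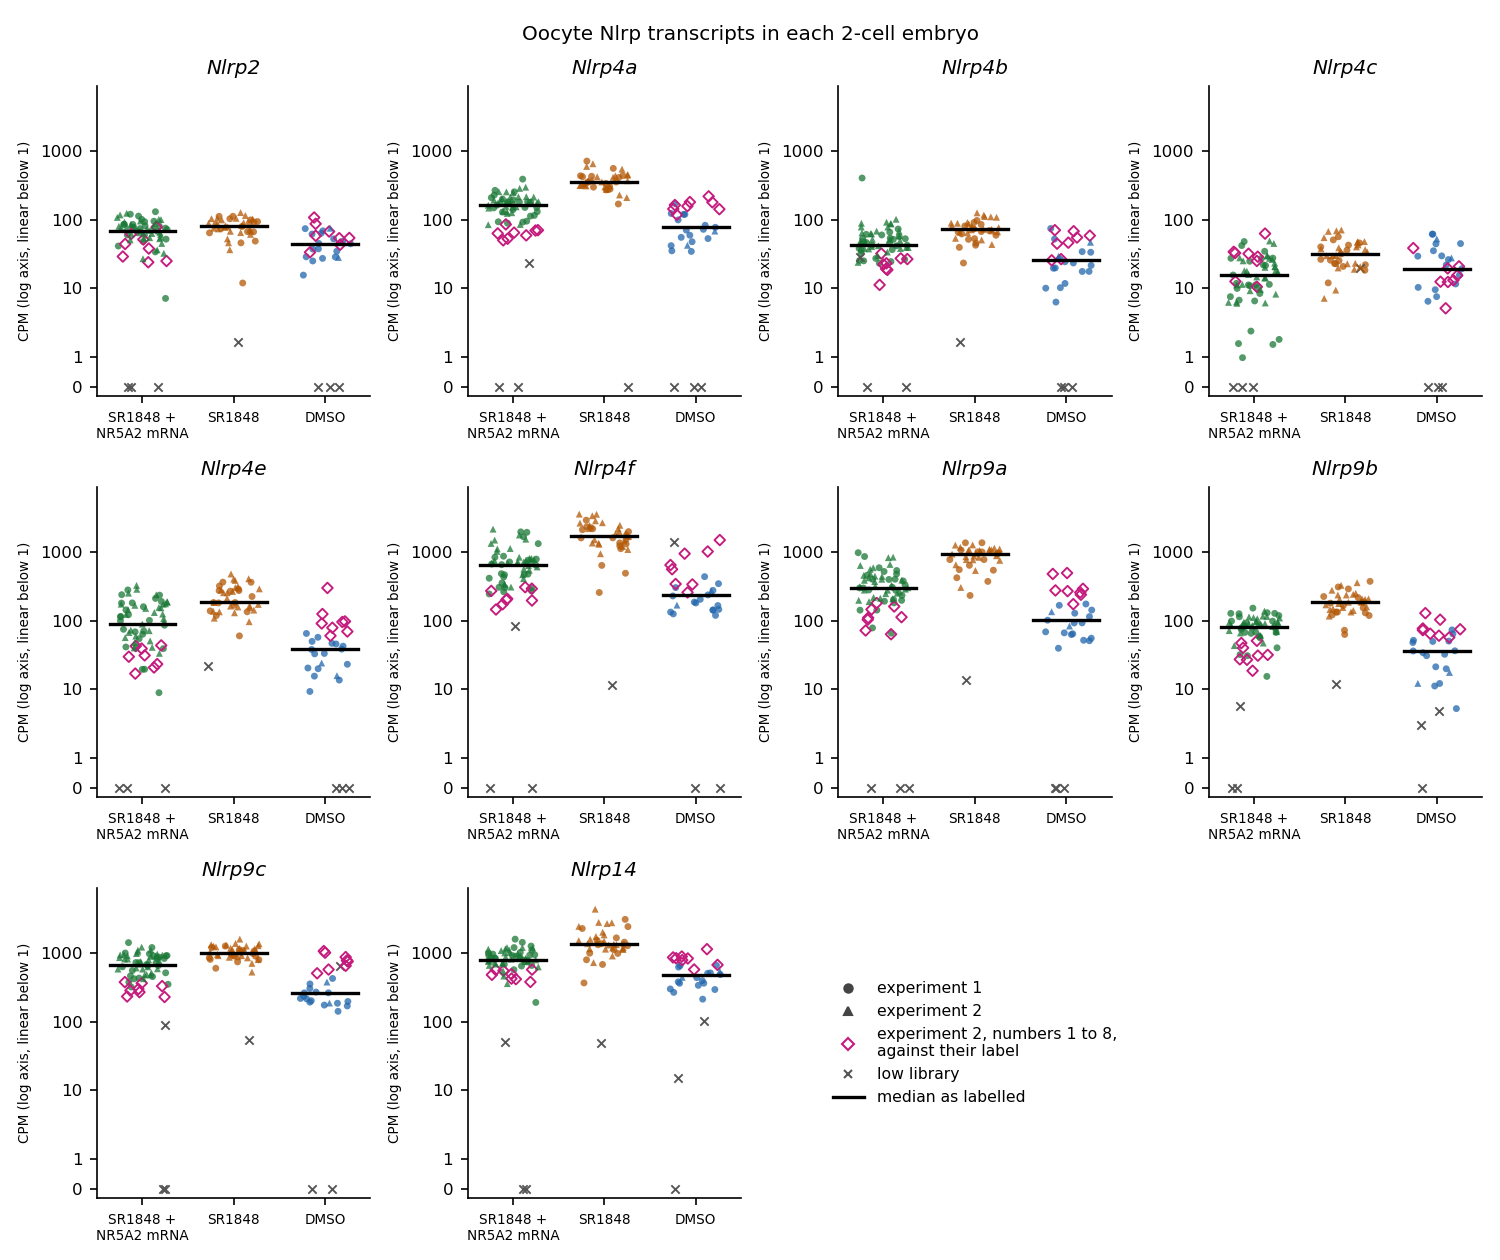
Level of each gene in every embryo, in CPM on a log axis that is linear below 1, by group as labelled; circles are experiment 1, triangles experiment 2, open diamonds the 16 libraries that go against their labels, crosses the low libraries and bars the medians. In each gene at least 36 of the 41 SR1848 embryos sit above the DMSO median, and for most genes the open diamonds sit low in the group labelled SR1848 with NR5A2 mRNA and high in the group labelled DMSO.

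SR1848 against DMSO asks what the inhibitor did to these stored mRNAs. With all libraries as labelled, all 10 genes were higher in SR1848 embryos by edgeR's quasi-likelihood test (Benjamini-Hochberg adjusted p under 0.05), in a comparison in which 69% of all genes tested were called and 33.5% were called higher. Their median log2 fold change was 1.87, against -0.03 for all genes. Over the 114 libraries 9 of the 10 were higher, against 38.3% of genes, with a median of 2.31 against 0.01. Other scalings turned some of these directions: Nlrp2 and Nlrp4c were lower with libraries scaled to other oocyte transcripts, and Nlrp4f and Nlrp9c were lower with libraries scaled to mitochondrial mRNAs. The mitochondrial fit held low libraries with between 0 and 112 mitochondrial counts. Over the 114 libraries that scaling gave log2 fold changes between 0.08 and 3.12 for the 10 genes.

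Nlrp4f, found with the subcortical maternal complex, ran from 259 to 3615 CPM with a median of 1803 CPM in SR1848 embryos, against 120 to 442 CPM with a median of 185 CPM in DMSO embryos. Of 40 SR1848 embryos, 39 lay above the highest DMSO embryo. Its log2 fold change was 2.39 (SE 0.34, edgeR adjusted p = 8.89e-10) as labelled and 3.13 (SE 0.25) over the 114 libraries. Nlrp14, which in mice is needed in the egg for development beyond the earliest divisions, ran from 370 to 4412 CPM with a median of 1371 CPM in SR1848 embryos, against 214 to 667 CPM with a median of 420 CPM in DMSO embryos. All but 1 of the 40 SR1848 embryos exceeded the highest DMSO embryo, and the log2 fold change was 1.69 (SE 0.27, edgeR adjusted p = 3.46e-08) as labelled and 1.99 (SE 0.17) over the 114. Nlrp2, a maternal-effect gene, changed least among the genes called in both fits. It ran from 11.9 to 128 CPM with a median of 80.7 CPM in SR1848 embryos, against 15.6 to 75.3 CPM with a median of 41.2 CPM in DMSO embryos, so the groups overlapped in part. Its log2 fold change was 0.86 (SE 0.25, edgeR adjusted p = 0.00182) as labelled and 0.98 (SE 0.17) over the 114.

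Of the Nlrp9 genes, Nlrp9a had the largest fold change of the 10, and the other Nlrp9 genes changed less. Nlrp9a ran from 234 to 1380 CPM with a median of 958 CPM in SR1848 embryos, against 39.7 to 176 CPM with a median of 88.5 CPM in DMSO embryos, and the groups did not overlap. Its log2 fold change was 2.66 (SE 0.34, edgeR adjusted p = 1.59e-11) as labelled, a 6.32-fold difference, and 3.31 (SE 0.23) over the 114 libraries. Nlrp9b, which in the mouse intestine also forms an inflammasome against rotavirus, had medians of 187 CPM in SR1848 and 33.3 CPM in DMSO embryos, and 38 of 40 SR1848 embryos lay above the highest DMSO embryo. Its log2 fold change was 2.17 (SE 0.26, edgeR adjusted p = 4.21e-12) as labelled and 2.63 over the 114. Nlrp9c ran from 532 to 1614 CPM with a median of 1037 CPM in SR1848 embryos, against 142 to 429 CPM with a median of 218 CPM in DMSO embryos. These groups did not overlap either, and the log2 fold change was 1.47 (SE 0.28, edgeR adjusted p = 2.08e-06) as labelled and 2.16 over the 114.

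The Nlrp4 copies differed among themselves. Nlrp4a had a log2 fold change of 2.06 (SE 0.29, edgeR adjusted p = 8.01e-10) as labelled and 2.46 over the 114 libraries. Nlrp4e, which in mice supports early embryo development, had one of 2.17 (SE 0.34, edgeR adjusted p = 1.84e-08) as labelled and 2.90 over the 114. Medians over the 114 libraries were 357 CPM in SR1848 and 69.6 CPM in DMSO embryos for Nlrp4a, and 199 CPM and 33.1 CPM in the same order for Nlrp4e. In each of these genes 39 of 40 SR1848 embryos were above the highest DMSO embryo. Nlrp4b changed less, by a log2 fold change of 1.31 (SE 0.28, edgeR adjusted p = 2.85e-05) as labelled and 1.57 over the 114, with 18 of 40 SR1848 embryos above the highest DMSO embryo. Nlrp4c ran from 7.13 to 70.9 CPM with a median of 32.7 CPM in SR1848 embryos, against 6.45 to 61.8 CPM with a median of 27.0 CPM in DMSO embryos, and these ranges overlapped almost wholly. Its log2 fold change of 0.65 (SE 0.29) was called as labelled (edgeR adjusted p = 0.0391), while over the 114 libraries it was 0.27 (SE 0.28, adjusted p = 0.384), and it did not pass in either experiment alone.

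**Figure D2:**
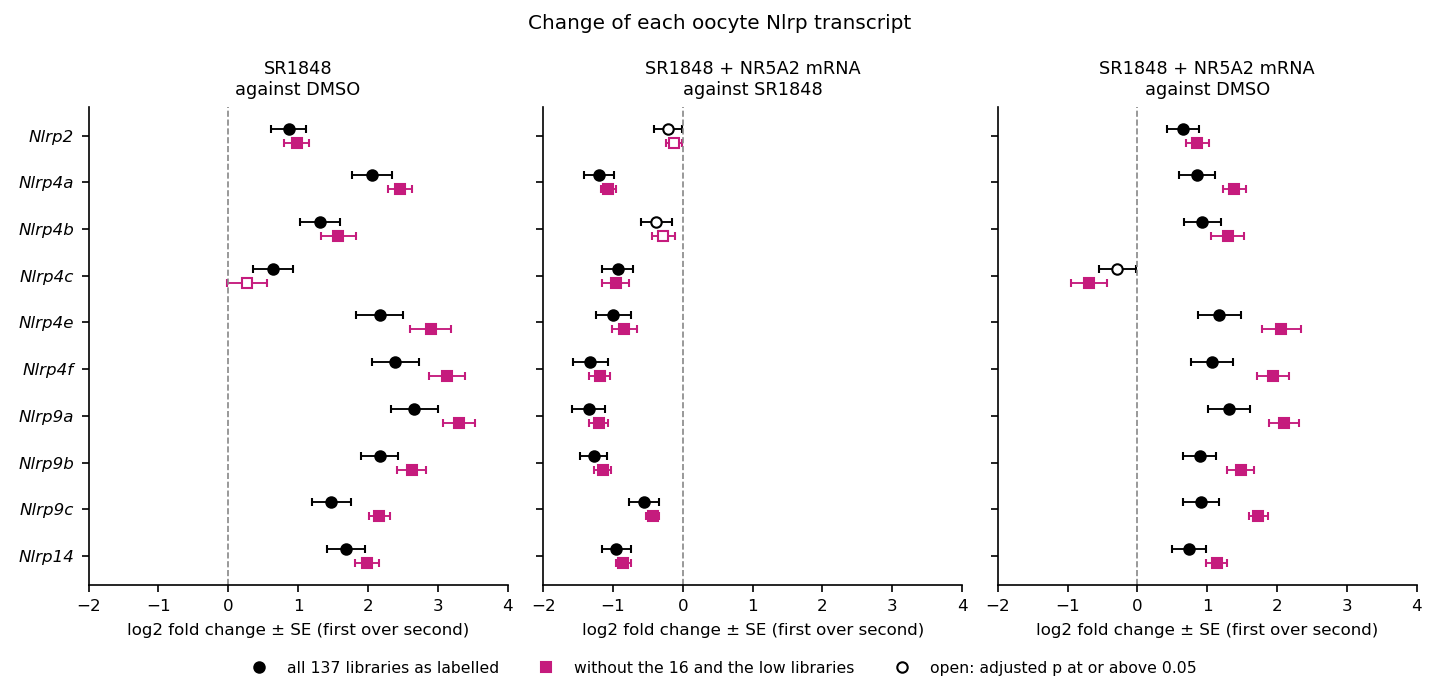
Log2 fold change of each gene with its SE under TMM scaling in the 3 comparisons, as labelled (black circles) and without the 16 and the low libraries (pink squares); open symbols did not pass an adjusted p of 0.05. In SR1848 against DMSO every point lies right of 0, in SR1848 with NR5A2 mRNA against SR1848 every point lies left of it, and Nlrp4c is the gene that changes call between the fits.

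SR1848 with NR5A2 mRNA against SR1848 asks what the receptor's mRNA did in inhibited embryos. As labelled, 8 of the 10 genes were lower in embryos with NR5A2 mRNA (edgeR's quasi-likelihood test, adjusted p under 0.05), while 12.3% of all genes were called lower and 41.9% were called in either direction. None was higher. The same count of 8 lower genes was found over the 114 libraries, against 16% of genes. The median log2 fold change of the 10 was -0.97 as labelled, against 0.10 for all genes.

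Nlrp9b had the smallest p: it ran from 15.4 to 153 CPM with a median of 86.9 CPM with NR5A2 mRNA, against 63.1 to 377 CPM with a median of 187 CPM in SR1848 alone. None of the 56 embryos labelled SR1848 with NR5A2 mRNA reached the SR1848 median, and the log2 fold change was -1.28 (SE 0.20, edgeR adjusted p = 4.77e-08) as labelled. Nlrp9a had a median of 327 CPM with NR5A2 mRNA and 958 CPM in SR1848 alone, with a log2 fold change of -1.35 (SE 0.24, edgeR adjusted p = 2.06e-06), and 55 of 56 embryos with NR5A2 mRNA were below the SR1848 median. Nlrp4f had medians of 697 CPM and 1803 CPM in the same order and a log2 fold change of -1.33 (SE 0.25, edgeR adjusted p = 4.81e-06). These 3 genes, with Nlrp4a (log2 fold change -1.20, SE 0.22, edgeR adjusted p = 2.23e-06), were the most reduced. Their log2 fold changes over the 114 libraries were -1.15 in Nlrp9b, -1.21 in Nlrp9a, -1.19 in Nlrp4f and -1.07 in Nlrp4a.

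Nlrp14 fell by 0.95 on the log2 scale (SE 0.21, edgeR adjusted p = 6.49e-05), Nlrp4e by 0.99 (SE 0.25, edgeR adjusted p = 0.000619) and Nlrp4c by 0.93 (SE 0.22, edgeR adjusted p = 0.000315). They fell by 0.85, 0.84 and 0.96 over the 114, in the same order. Nlrp4c, whose SR1848 and DMSO ranges overlapped almost wholly, was lower with NR5A2 mRNA in most embryos, with 51 of 56 embryos with NR5A2 mRNA below the SR1848 median. Nlrp9c changed less: its medians were 765 CPM with NR5A2 mRNA and 1037 CPM in SR1848 alone, and its log2 fold change of -0.56 (SE 0.21, edgeR adjusted p = 0.0269) became -0.48 (adjusted p = 0.0623) without the 16, where 12.4% of genes were called lower, and -0.43 (adjusted p = 5.88e-05) over the 114 libraries. Nlrp2 and Nlrp4b did not pass. Nlrp2 had a log2 fold change of -0.21 (SE 0.20, adjusted p = 0.427) and medians of 74.1 CPM with NR5A2 mRNA and 80.7 CPM in SR1848 alone. Nlrp4b had one of -0.38 (SE 0.22, adjusted p = 0.163), and 1 embryo with NR5A2 mRNA in experiment 1 held 408 CPM of it, while the highest SR1848 embryo held 126 CPM. The library of that embryo had 8364 genes detected, the fewest outside the low libraries. It also gave the lowest Nlrp9b value with NR5A2 mRNA, 15.4 CPM.

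SR1848 with NR5A2 mRNA against DMSO asks how far the injected embryos stood from those in solvent alone. As labelled, 9 of the 10 genes were higher with SR1848 and NR5A2 mRNA (edgeR's quasi-likelihood test, adjusted p under 0.05), against 32.2% of genes called higher and 57.1% called in either direction. Log2 fold changes of the 9 lay between 0.65 in Nlrp2 and 1.31 in Nlrp9a, and over the 114 libraries, where 42.6% of genes were called higher, the same genes had 0.86 and 2.10. This comparison shares its embryos with both of the others. Over the 114 libraries Nlrp9a had medians of 327 CPM with SR1848 and NR5A2 mRNA, 958 CPM with SR1848 and 88.5 CPM with DMSO, and Nlrp14 had 846, 1371 and 420 CPM in the same order, so that the injected embryos stood between the other groups. Nlrp4c did not follow this order. Its medians were 15.1, 32.7 and 27.0 CPM, and its log2 fold change of -0.29 (SE 0.26, edgeR adjusted p = 0.342) as labelled became -0.69 (SE 0.26, adjusted p = 0.0116) over the 114, where 34.5% of genes were called lower. In Nlrp2 the injected embryos stood close to SR1848 alone, at 74.1 CPM with SR1848 and NR5A2 mRNA, 80.7 CPM with SR1848 and 41.2 CPM with DMSO.

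The 16 libraries that went against their labels in the injected RNA also did so in these genes. Summed over the 10 genes, the 8 labelled SR1848 with NR5A2 mRNA ran from 998 to 1574 CPM with a median of 1440 CPM, while the other 32 of that label in experiment 2 had a median of 3122 CPM. The 8 labelled DMSO ran from 2251 to 4510 CPM with a median of 2961 CPM, while the other 2 of that label in experiment 2 had 1148 and 1515 CPM. The 2 sets of 8 did not overlap in summed level. In Nlrp9c, for example, those labelled SR1848 with NR5A2 mRNA ran from 230 to 380 CPM and those labelled DMSO from 511 to 1079 CPM. Within experiment 2 as labelled, none of the 10 genes passed in SR1848 with NR5A2 mRNA against DMSO (edgeR's quasi-likelihood test; 0 members also at an unadjusted p under 0.05), and 0% of all genes did.

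**Figure D3:**
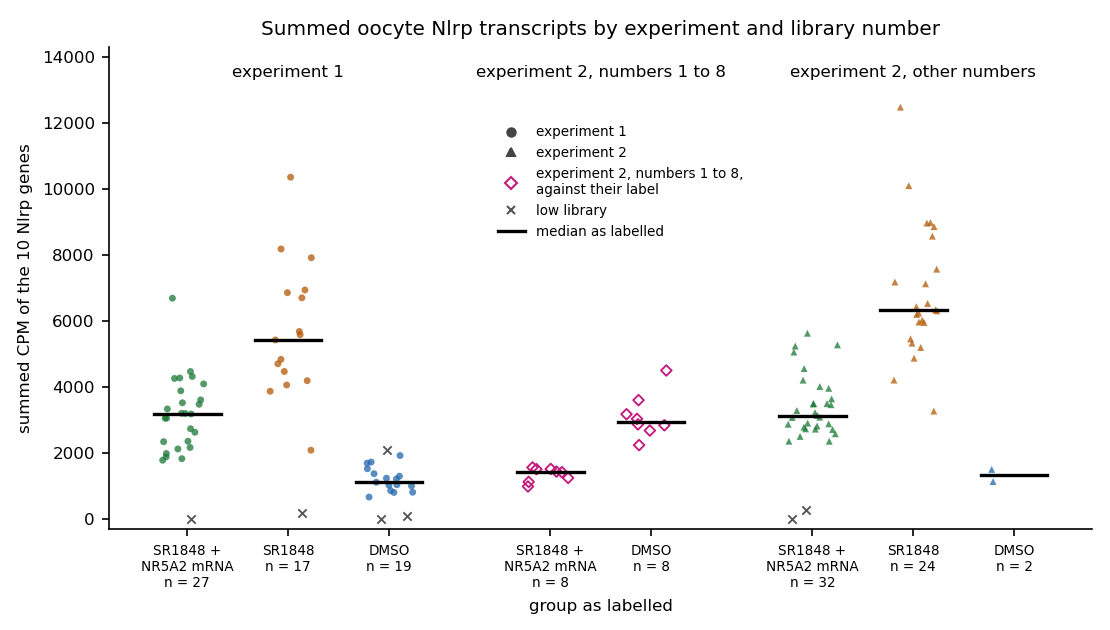
Summed CPM of the 10 genes in each embryo, by group as labelled, in experiment 1, in the libraries of experiment 2 numbered 1 to 8 that go against their labels, and in the other libraries of experiment 2; bars are medians and crosses low libraries. Among libraries numbered 1 to 8 those labelled DMSO sit above those labelled SR1848 with NR5A2 mRNA, the reverse of experiment 1, where the medians were 3193 CPM with SR1848 and NR5A2 mRNA and 1127 CPM with DMSO.

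The experiments were also fitted apart. In SR1848 against DMSO, 9 of the 10 genes were higher in experiment 1 alone, where 36.3% of genes were called higher, and 7 were higher in experiment 2 alone, where 4.51% were. In experiment 2 the genes that did not pass were Nlrp2, Nlrp4c and Nlrp9c. In SR1848 with NR5A2 mRNA against SR1848, 3 genes were lower in experiment 1 alone (Nlrp4a, Nlrp9a and Nlrp9b), against 5.09% of genes, and 9 in experiment 2 alone, against 11.3%; without the low libraries experiment 1 gave 8, against 8.98% of genes. The change in SR1848 against DMSO was smaller in experiment 2 than in experiment 1 by 1.79 on the log2 scale in Nlrp4e, 1.74 in Nlrp9a and 1.59 in Nlrp9c (edgeR interaction test, adjusted p = 0.017, 0.0156 and 0.0111), in a test that called 31.3% of all genes. Without the 16 libraries that test called none of the 10 (0 at an unadjusted p under 0.05) and 0.181% of genes, and experiment 2 then held 2 DMSO libraries.

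The make-up of the Nlrp pool differed between groups as well as its size. Over the 114 libraries Nlrp4f held a median of 21.0% of the summed level in SR1848 with NR5A2 mRNA, 28.6% in SR1848 and 16.1% in DMSO embryos. Nlrp9a moved the same way, with 10.5%, 14.3% and 7.44%. Nlrp14 was the other way round, with 27.0%, 23.3% and 35.3%, as was Nlrp2, with 2.24%, 1.27% and 3.62%. Nlrp4c held 0.473%, 0.534% and 2.37%, highest in DMSO embryos. Nlrp9c held its highest median share with NR5A2 mRNA, at 22.8%, against 16.2% in SR1848 and 19.3% in DMSO embryos. The remaining 4 genes held medians between 1.14% and 6.03% in every group. Shares of a fixed sum are tied to each other, and no test was made of them.

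**Figure D4:**
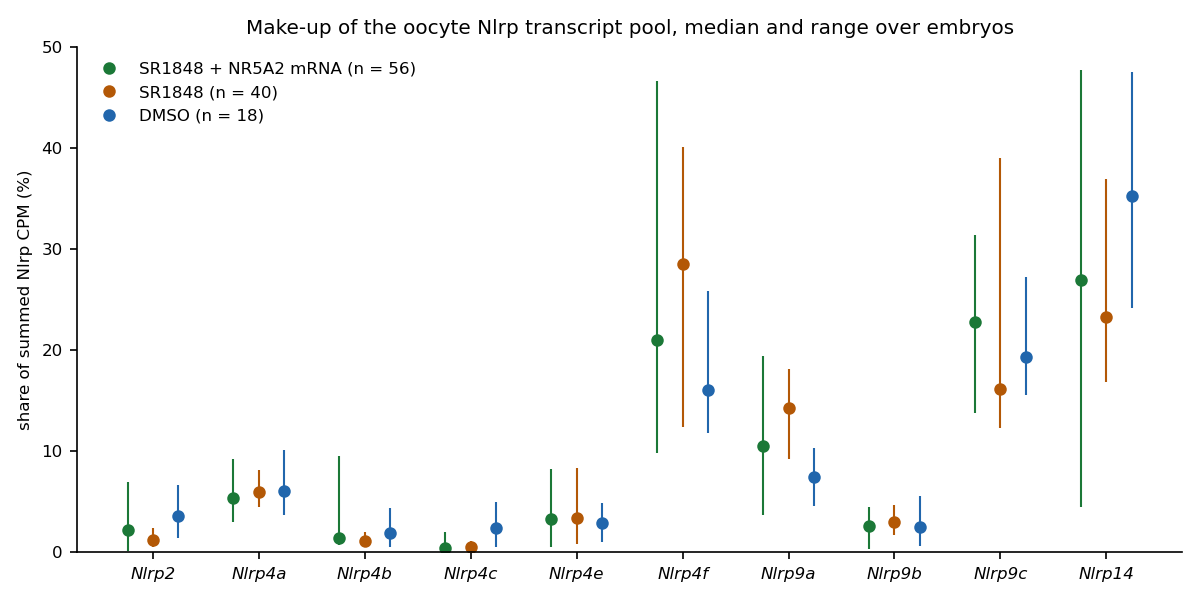
Share of each gene in the summed CPM of the 10 genes, as median (point) and lowest to highest embryo (line), without the 16 and the low libraries. Nlrp4f and Nlrp9a hold their largest median share in SR1848 embryos and Nlrp14 in DMSO embryos, at 35.3%.

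The Nlrp genes were set beside other groups of genes. Of 32 other oocyte transcripts, which encode egg coat proteins, oocyte factors and RNA-binding proteins, 31 were tested, and 25 were higher and 2 lower in SR1848 against DMSO as labelled, where 33.5% of all genes were called higher and 35.5% lower; their median log2 fold change was 1.68. Nobox, which encodes an oocyte transcription factor, rose by 2.69 on the log2 scale (SE 0.33, edgeR adjusted p = 4.69e-12), with medians of 309 CPM in SR1848 and 25.6 CPM in DMSO libraries as labelled, and Tcl1b2, a member of the oocyte-rich Tcl1 cluster, rose by 2.85 (SE 0.33, edgeR adjusted p = 6.36e-13). With NR5A2 mRNA against SR1848, 13 of the 31 were lower and none higher as labelled, with a median of -0.47, against 12.3% of all genes called lower. The 114 libraries gave 21 lower, against 16% of genes. Of 6 genes for other parts of the subcortical maternal complex, 3 were higher in SR1848 against DMSO as labelled, against 33.5% of all genes. Over the 114 libraries 5 were higher, against 38.3% of genes. With all libraries as labelled and scaled to the oocyte transcripts 1 was higher and 4 were lower, against 7.43% and 62.1% of all genes. The complex was led by Zbed3, at a log2 fold change of 2.39 (SE 0.34, edgeR adjusted p = 9.03e-10), and Ooep, whose protein holds the complex together with others, at 1.32 (SE 0.23, edgeR adjusted p = 3.95e-07). Nlrp5 was at medians of 490, 513 and 305 CPM in SR1848 with NR5A2 mRNA, SR1848 and DMSO libraries.

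Among 19 other genes of the wider NLR family 11 were tested. In SR1848 against DMSO 3 were higher and 4 lower as labelled, shares near the 33.5% and 35.5% of all genes. Nlrp4g, the copy that shares most with Nlrp4f, rose by 1.95 on the log2 scale (SE 0.33, edgeR adjusted p = 1.19e-07), with medians of 130 CPM in SR1848 and 16.3 CPM in DMSO libraries. Nlrx1, a mitochondrial member of the family, fell by 2.49 on the log2 scale (SE 0.46, edgeR adjusted p = 1.57e-06), with medians of 0.309 and 6.60 CPM. Of 8 genes for inflammasome partners, 2 passed the filter on low counts and both were higher in SR1848. Casp1, which encodes caspase-1, had a median of 2.89 CPM in SR1848 and of 0 CPM in DMSO libraries, and Nek7, which licenses NLRP3, had 58.6 and 18.9 CPM. Of 30 transcripts made at the 2-cell stage, 10 were lower and 2 higher in SR1848 against DMSO as labelled, against 35.5% and 33.5% of all genes, and 20 were higher and none lower with NR5A2 mRNA against SR1848, where 29.6% of all genes were called higher. Trim43b, transcribed at that stage, had medians of 7.36 CPM in SR1848 and 691 CPM in DMSO libraries, and Ubtfl1, of the same list, had 3.17 and 146 CPM. Over the 114 libraries the 2-cell list gave 11 higher and 10 lower in SR1848 against DMSO, against 38.3% and 38.5% of genes.

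Scaling bears on the size of every change here, because a large part of the RNA changed at once. When libraries were scaled to the 32 other oocyte transcripts in place of the bulk of genes, the median of all genes in SR1848 against DMSO moved to -1.38 on the log2 scale. This scaling was fitted only to all libraries as labelled, with the 16 and the low libraries among them. Relative to stored oocyte mRNA, 7.43% of all genes were called higher and 62.1% lower, and 5 of the 10 Nlrp genes were still higher in SR1848: Nlrp9a by 1.44, Nlrp4f and Nlrp4e by 1.07 each, Nlrp9b by 0.89 and Nlrp4a by 0.79. Of the 32 oocyte transcripts themselves 31 were tested on this scale, and 14 were higher and 8 lower. Their median was 0.45, against 0.55 for the 10 Nlrp genes. All 10 Nlrp genes stayed above the all-gene median under that scaling. Nlrp4b at 0.02, Nlrp9c at 0.23 and Nlrp14 at 0.31 did not pass, and Nlrp2 at -0.47 (edgeR adjusted p = 0.0487) and Nlrp4c at -0.78 (edgeR adjusted p = 0.00864) were lower. With NR5A2 mRNA against SR1848, 6 genes were lower on this scale, against 3.53% of all genes: Nlrp9a by 0.95, Nlrp4f by 0.84, Nlrp9b by 0.79, Nlrp4a by 0.65, Nlrp4e by 0.60 and Nlrp14 by 0.37. Of the 31 oocyte transcripts 10 were lower and 5 higher in that comparison, with a median of -0.01, against -0.49 for the 10 Nlrp genes. Against DMSO, the embryos with SR1848 and NR5A2 mRNA then had 1 Nlrp gene higher, Nlrp9a at 0.48, and 1 lower, Nlrp4c at -1.17, against 9.08% and 41.4% of all genes. There 8 of the 31 oocyte transcripts were higher and 6 lower. Scaling to mitochondrial mRNAs gave log2 fold changes of -8.89 in Nlrp4f and -8.49 in Nlrp9c for SR1848 against DMSO, with 4 low libraries that held between 0 and 112 mitochondrial counts in the fit. Without the 16 and the low libraries that scaling gave 2.93 and 1.93.

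**Figure D5:**
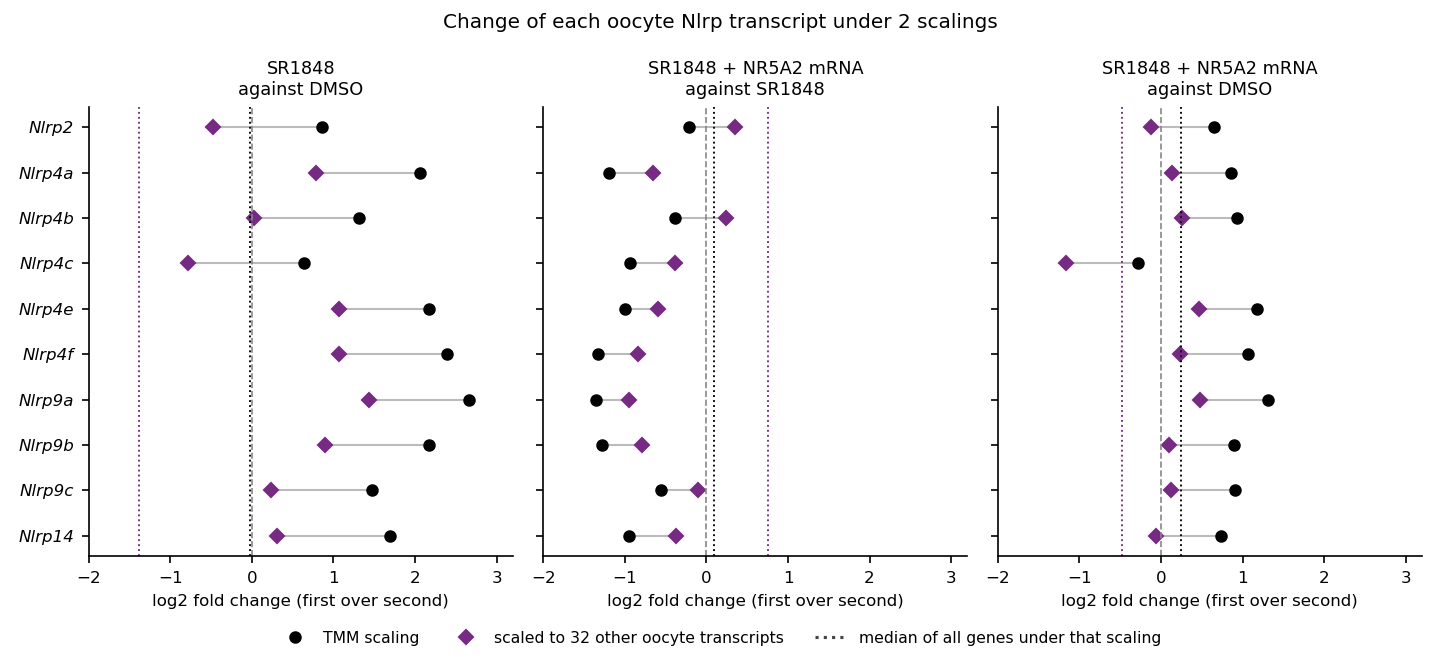
Log2 fold change of each gene under TMM scaling (black circles) and with libraries scaled to 32 other oocyte transcripts (purple diamonds), all libraries as labelled; dotted lines are the median of all genes under each scaling. In SR1848 against DMSO the diamonds of Nlrp4a, Nlrp4e, Nlrp4f, Nlrp9a and Nlrp9b stay above 0 and those of Nlrp2 and Nlrp4c fall below it.

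In 5 of the 10 genes at least 90.8% of counts fell on 1 transcript entry, and the other 5 were divided between entries. The main entry held 99.8% of the counts of Nlrp2, 99.5% of Nlrp4e, 99.2% of Nlrp14, 97.7% of Nlrp4f and 90.8% of Nlrp9b, but 61.1% of Nlrp9a, 58.9% of Nlrp4c, 50.4% of Nlrp4b and 40.8% of Nlrp4a. Nlrp9c was divided between a coding entry of 3216 bases with 47.1% and the processed transcript of 1228 bases with 50.9%. The coding entry of Nlrp9c held 45.3% of its counts in SR1848 with NR5A2 mRNA, 51.1% in SR1848 and 37.4% in DMSO libraries. The authors' deposited table, which sets NR5A2 mRNA against SR1848 alone, lists 43 transcripts of the 10 genes, and 38 have an adjusted p-value. Past 0.05 in the authors' deposited table are 23 of them, from 9 genes, with a negative log2 fold change and 2, from 2 genes, with a positive one. The 2 positive values are near 0, at 1.24e-05 in Nlrp4f and 1.26e-05 in Nlrp9b. Some of the negative ones are near 0 too, such as -2.49e-06 in an Nlrp9c transcript. The share of all transcripts past 0.05 in that table was not counted. The sign of the log2 fold change in the authors' deposited table, values near 0 included, matched the ratio of mean CPM, NR5A2 mRNA over SR1848, in 37 of the 38. The coding entry of Nlrp9c has a log2 fold change of -0.78 in the authors' deposited table and its processed transcript one of -0.45.

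Embryos of 1 group varied in these genes together, though not in all of them. With each gene centred within group and experiment over the 114 libraries, the pairwise Pearson correlation of log2 CPM between the 10 genes had a median of 0.41 and ran from -0.15, between Nlrp2 and Nlrp4e, to 0.80, between Nlrp9a and Nlrp9c, which share 268 of the 31-base words. Over all libraries as labelled the median was 0.79; several of the 10 genes are at 0 in the low libraries. Among the 5 genes most like the summed Nlrp level, of 7113 ranked over all libraries, were Tiparp (r = 0.96), Skp1a (r = 0.95), Tcl1 (r = 0.95) and Ldhb (r = 0.95). Over the 114 libraries the 5 were Tbc1d15 (r = 0.84), Nlrp4g (r = 0.75), Pex13 (r = 0.74), Birc3 (r = 0.73) and Golph3l (r = 0.72). No gene is among the 5 in both rankings. These correlations describe embryos that share library preparation and depth, and carry no test.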

How the data were processed

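Per the submitters' processing notes, kallisto 0.46.1 quantified the reads of each single-embryo library after Trim Galore 0.6.2, and the notes also name DESeq2 1.32.0, R 3.5.1 and the builds mm10 and hg19; the use made of hg19 is not given. The authors deposited kallisto's estimated counts (expected counts) for 119358 transcript entries, with a fractional part in 26.3% of values (tolerance 1e-09). A second table, which the authors deposited for the effect of the mRNA in inhibited embryos, lists for each transcript a log2 fold change with its p-value and adjusted p-value, per the file headers.

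GENCODE M21 (GRCm38) gave the gene of 116770 transcript entries, and the authors' table that of another 892. Another 1691 entries, with 0.557% of counts, were left unpaired, and 5 entries (GFP and repeats among them), with 0.158%, were kept apart. The 43 transcripts of the Nlrp genes were paired alike by both sources. Counts were summed by gene and rounded for the tests. Low libraries are those with a total below 1 in 5 of the median total, or with fewer than 1 in 2 of the median number of genes detected.

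Genes were tested with edgeR 4.0.16 in R 4.3.3 (quasi-likelihood test over all libraries as labelled, with terms for group and experiment, after filterByExpr and TMM scaling) with Benjamini-Hochberg adjustment over 14534 genes at 0.05. The script was tested on simulated data. Alternatives were DESeq2 1.42.0, other scalings, no filter, subsets of libraries and a replicate block; 3 combined settings were chosen after seeing the data. No 2 libraries were copies of each other: the lowest chi-square per degree of freedom among 3437 pairs was 17.3. The protocol has no molecular identifiers, so an SE covers spread between embryos and counting error together. Named genes were all 10 Nlrp genes, the 2 with the smallest p in SR1848 against DMSO from each list (the 2 most abundant where none was called), and the 5 most like the summed Nlrp level among genes whose mean log2 CPM reached 3; genes named outside that rule, such as Gdf9, Bmp15 and Nlrp5, were chosen after their values were seen. One gene that the rule names is not reported here. The 10 genes and the lists were chosen with earlier results of these data known. Figures were drawn with matplotlib 3.10.9.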

Additional observations from a re-analysis of the deposited data

Results flagged for a closer look

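In Nlrp4e, experiment 2 library number 1 labelled DMSO held 302 CPM, far above the other 9 libraries of that group, by a test for 1 extreme value; 11 such groups were tested, and chance picks about 1 in 20. That library is one of the 16 whose injected RNA goes against the label. The change in SR1848 against DMSO differed between the experiments in 3 genes by the edgeR interaction test as labelled: the log2 change in experiment 2 minus that in experiment 1 was -1.79 in Nlrp4e, -1.74 in Nlrp9a and -1.59 in Nlrp9c. Without the 16 libraries the same differences were 0.67, -0.25 and -0.13, and none passed.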

How the results depend on the processing

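Each comparison was repeated under 16 alternatives for the 10 genes, 160 values in each. In SR1848 against DMSO 16 of these lost their call and 5 turned direction. In SR1848 with NR5A2 mRNA against SR1848 10 lost it, 8 gained it and 5 turned, and in SR1848 with NR5A2 mRNA against DMSO 25 lost it, 6 gained it and 7 turned. The cause was not tested except where stated. In SR1848 against DMSO, scaling to other oocyte transcripts called 5 genes higher and 2 lower, with Nlrp2 at -0.47 and Nlrp4c at -0.78. That scaling was run only on all libraries as labelled. Scaling to mitochondrial mRNAs put Nlrp4f at -8.89 and Nlrp9c at -8.49, in a fit that held low libraries with between 0 and 112 mitochondrial counts. Over the 114 libraries it gave between 0.08 and 3.12 for the 10 genes. Nlrp4c was also at -0.32 over the 114 libraries with relative log expression scaling. In SR1848 with NR5A2 mRNA against SR1848, experiment 1 alone called 3 lower, with Nlrp4b at 0.086 there (0.049 without its low libraries), and the oocyte scaling put Nlrp2 at 0.36 and Nlrp4b at 0.24; Nlrp2 was at 0.026 over the 114 with relative log expression scaling. In SR1848 with NR5A2 mRNA against DMSO, experiment 2 alone called 0 higher, with Nlrp9c at -0.071 and Nlrp14 at -0.074. There the oocyte scaling called 1 higher and 1 lower, with Nlrp2 at -0.12 and Nlrp14 at -0.060. The mitochondrial scaling put Nlrp4f at -10.73, Nlrp9c at -9.56 and Nlrp14 at -0.21, with the same low libraries in the fit. Over the 114 libraries it gave between -1.43 and 1.40 for the 10 genes in that comparison. The lowest of the 10 genes was at -0.59 with DESeq2. In the 3 fits to the 114 libraries the lowest was at -0.69 with TMM, -1.17 with relative log expression and -1.43 with mitochondrial scaling. The interaction test of SR1848 against DMSO called 0 of the 10 genes without the 16, where 0.181% of all genes were called. Over the 114 it called 0, with differences from -0.39 in Nlrp4c to 1.38 in Nlrp9b. Without the low libraries alone it called 7, with differences from -1.63 in Nlrp4e to 0.38 in Nlrp4c. The share of all genes called in these last 2 settings was not counted.

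Replicate numbers do not pair embryos: of 97 same-numbered pairs of libraries 23 correlated above 0.1, and in 5 of the 97 the library correlated best with its own number. With the replicate block, the median log2 fold change of the 10 genes was 1.92 in SR1848 against DMSO, where that of all genes was -0.05. In SR1848 with NR5A2 mRNA against SR1848 the 2 medians were -1.02 and 0.14. In SR1848 with NR5A2 mRNA against DMSO they were 1.04 and 0.20. The low libraries limit what can be read from single embryos: 1 held 100513 counts, and all 10 genes were at 0 in 3 of the 7.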
